A study of Mus musculus with 6 samples.

Results

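The genes described here are the carriers of amino acids and of closely related compounds in mouse embryonic stem cells. They were chosen by name, as every protein-coding gene whose symbol starts with Slc1a, Slc3a, Slc6a, Slc7a, Slc36a, Slc38a or Slc43a. This rule took 64 of the 55401 genes in the table of RNA read counts. It used no measured value. Some of the 64 do not carry amino acids. Slc6a2, Slc6a3 and Slc6a4 encode monoamine carriers, Slc6a8 encodes the creatine carrier, and Slc43a3 encodes a carrier of purine bases. Slc7a6os encodes no transporter and is named only for lying opposite Slc7a6.

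Cells cannot make the essential amino acids and take them up through carriers in the plasma membrane. Some carriers use the sodium gradient to concentrate their substrate, and others exchange 1 amino acid for another, so that the gradient built by the first kind drives uptake by the second. The light chains of the Slc7 family work only when bound to a heavy chain of the Slc3 family. Embryonic stem cells of the mouse depend on imported glutamine, leucine, arginine and threonine, and the supply of amino acids is sensed at the lysosome, where it controls the growth kinase mTORC1.

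RNA was compared between unmodified V6.5 cells (WT) and V6.5 cells with both copies of Cdh1, the gene of the adhesion protein E-cadherin, disrupted (Cdh1-/-, called knockout below). V6.5 is an embryonic stem cell line from hybrid mouse embryos. There were 3 libraries of total RNA per genotype, with the replicate letters A, B and C. The labels do not say whether these were separate cultures or how many knockout clones were used, so the p-values measure the spread between these libraries only.

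Total counts lay between 18020719 and 23381942 per library, and 17325 genes had enough counts to be tested. Levels are given as counts scaled to library size (CPM), and as CPM per kilobase of exon (RPKM) where genes are compared with each other. Called means an adjusted p under 0.05 in edgeR's quasi-likelihood test, with adjustment over all tested genes. Cdh1 stood at 537 to 571 CPM in WT and at 166 to 183 CPM in knockout libraries, 30.9% of the WT mean. All 8 listed stem cell markers were expressed in both genotypes, with summed levels of 3933 to 4329 CPM in WT and 4461 to 5570 CPM in knockout libraries. Of these 8, 2 were called higher and 0 lower. All 12 listed primitive endoderm markers were called higher in the knockout, with sums of 721 to 914 CPM in WT and 1698 to 2928 CPM in knockout libraries, and none of them was at 0. Neural markers summed to 157 to 194 CPM in WT and 111 to 142 CPM in knockout libraries. Of the 9, 6 were tested, 3 were called lower and 0 higher. Fibroblast markers summed to 42.4 to 66.8 CPM in WT and 35.0 to 49.0 CPM in knockout libraries, and Fap was at 0 everywhere. Of the 10, 6 were tested, 1 was called lower and 0 higher. Over all tested genes 7.60% were called higher and 5.71% lower. Fewer cells of a type and less RNA per cell cannot be told apart in such bulk samples. Knockout replicate A stood apart on the second principal component, which held 20.9% of the variance. The median of chromosome 14 lay 0.54 to 0.55 above that of the other autosomes (log2) in the knockout libraries, and the median of chromosome 1 lay between -0.33 and -0.29.

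Most of the RNA of the members came from a few genes, and none of these was called different between the genotypes. The 8 members with the highest mean RPKM held 73.8% of the summed RPKM of the 64 in WT and 71.5% in the knockout. Slc7a6os, which encodes no transporter, is among these 8. The sum over all members was 878 ± 41.1 RPKM in WT and 908 ± 55.7 RPKM in the knockout (SD, n = 3 each).

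**Figure D1:**
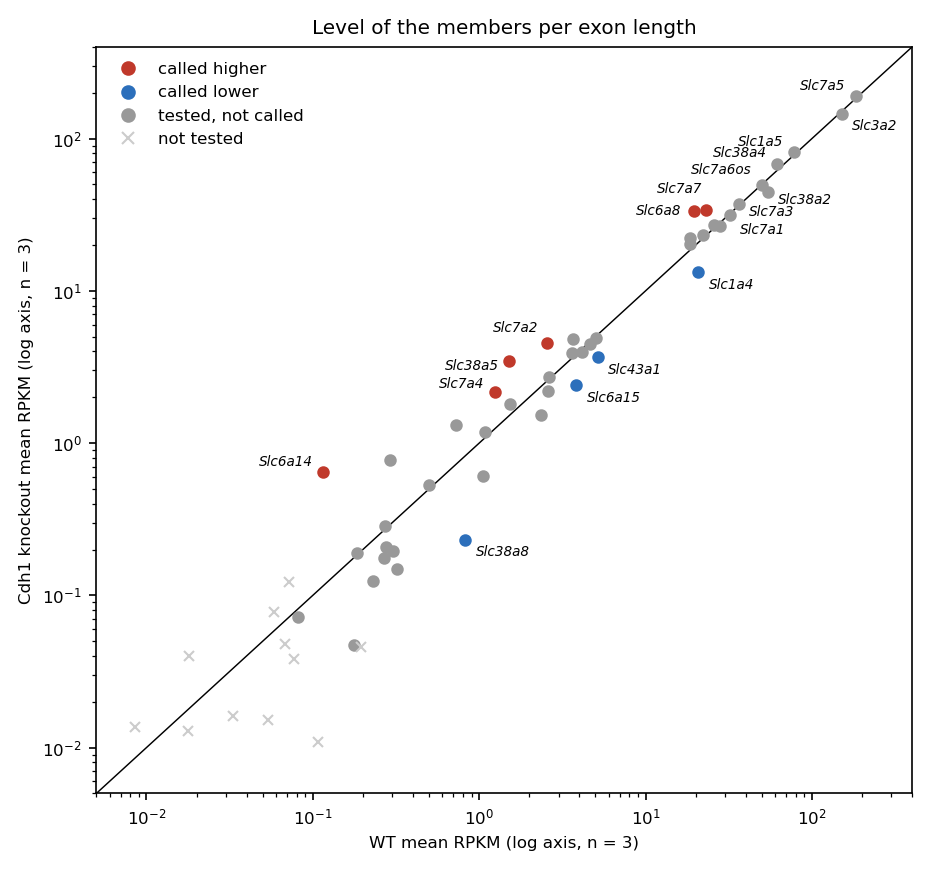
Mean RPKM of each member in WT (x axis) and in the Cdh1 knockout (y axis), both on log axes, n = 3 libraries each. Of the 58 members above 0 in both groups 57 are drawn, and the line marks equal levels. The 8 members with the highest RPKM, from Slc7a5 to Slc7a1, lie on or near the line.

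The highest of all was Slc7a5, the light chain LAT1, which carries leucine and other large neutral amino acids. It stood at 681, 581 and 687 CPM in the WT libraries A, B and C and at 597, 740 and 660 CPM in knockout libraries replicates. The groups overlapped (log2 fold change 0.04, standard error, SE, 0.10, adjusted p 0.865). Its heavy chain Slc3a2, known as 4F2hc or CD98, stood at 448, 436 and 484 CPM in WT and at 431, 466 and 428 CPM in knockout libraries (log2 fold change -0.05, SE 0.08, adjusted p 0.783). Per exon length these were 187 RPKM for Slc7a5 and 149 RPKM for Slc3a2 over the 6 libraries. Both genes of the LAT1 complex were thus the most abundant members, and their levels interleaved between genotypes.

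The exchanger ASCT2, encoded by Slc1a5 and known for glutamine, followed with 234, 201 and 210 CPM in WT and 244, 233 and 203 CPM in knockout libraries (log2 fold change 0.07, adjusted p 0.676). Slc38a4, a sodium-dependent carrier of neutral amino acids, had 235, 287 and 246 CPM in WT and 332, 257 and 260 CPM in knockout libraries (log2 fold change 0.14, adjusted p 0.445). Slc7a6os, the member that is no transporter, had 60.0 to 64.3 CPM in WT and 59.6 to 64.7 CPM in knockout libraries. In all of these the groups overlapped.

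Slc38a2, the system A carrier SNAT2 that is known to be induced when amino acids run short, had 264, 238 and 259 CPM in WT and 156, 244 and 227 CPM in knockout libraries. Knockout replicate A was the lowest library, and B lay within the WT range. Its log2 fold change was -0.28 (SE 0.13, adjusted p 0.190), and without knockout replicate A it was -0.11 (adjusted p 0.486). Slc7a3 and Slc7a1, which encode carriers of arginine and lysine, also had their lowest value in knockout replicate A. Slc7a3 had 121, 87.7 and 108 CPM in WT and 83.6, 134 and 108 CPM in knockout libraries (log2 fold change 0.04, adjusted p 0.905). Slc7a1 had 247, 201 and 242 CPM in WT and 166, 275 and 233 CPM in knockout libraries (log2 fold change -0.03, adjusted p 0.919). Over the tested members, knockout replicate A was the lowest of the 6 libraries in 13 of 47 (27.7%), against 19.9% of all tested genes. The same library was the highest in 11 of 47 (23.4%), against 20.4% of all tested genes.

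Of the 64 members, 47 had enough counts to be tested and 11 were called, 7 higher and 4 lower in the knockout. The call rate was 23.4% of the tested members beside 13.3% of all tested genes. By direction it was 14.9% higher beside 7.60%, and 8.51% lower beside 5.71%. The median log2 fold change was 0.04 over the tested members and -0.01 over all tested genes, and the median of the absolute values was 0.27 and 0.23. In 17 of the 47 (36.2%) all knockout libraries lay on 1 side of all WT libraries, beside 30.7% of all tested genes. A member with few counts could be tested only if it was counted well enough in 1 genotype, so these shares describe the tested members and not the families. Before adjustment, 18 of the 47 tested members had a p under 0.05, beside 4622 of all 17325 tested genes.

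**Figure D2:**
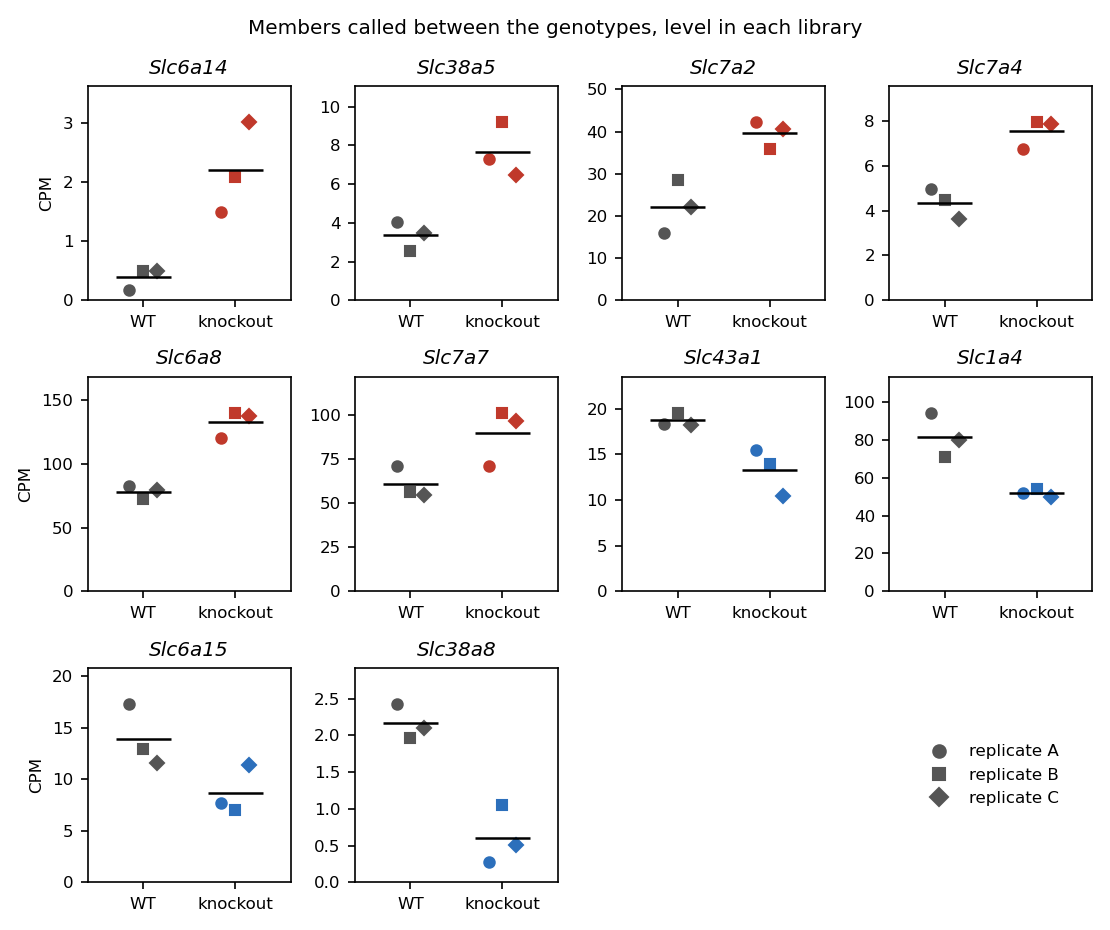
CPM after scaling in each library for 10 of the 11 called members, from the highest log2 fold change (Slc6a14, 2.48) to the lowest (Slc38a8, -1.79), with the y axis starting at 0. Points are libraries, their shape gives the replicate letter, and the bar is the mean of 3. In each panel the lowest library of one genotype lies above the highest of the other, narrowly for Slc7a7 and Slc6a15.

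The members that rose included Slc6a14, Slc38a5, Slc7a2, Slc7a4, Slc6a8 and Slc7a7, and those that fell were Slc1a4, Slc6a15, Slc43a1 and Slc38a8. Of the 11, 6 were called, among them Slc6a14, Slc6a8, Slc38a5, Slc7a2 and Slc1a4, in each of the 15 other settings tried for single genes, of which 6 each left out 1 library. The other 5 lost their call in 4 to 6 of these settings. Of the 7 that rose, 3 lie on the X chromosome, on which 15.1% of 584 tested genes were called higher with a median log2 fold change of 0.02. The primitive endoderm markers given above were higher in the same libraries in which these 7 members were higher, and their part in these changes was not tested.

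Promoter sequences are shown for Slc1a4, Slc38a5 and Slc6a14, the 3 of those 6 members that were called in each setting and have an entry in the RefSeq table of promoters (GRCm38.p6). Each run covers the 76 bases from 100 to 25 bases before the RefSeq start, read 5′ to 3′ on the strand of the gene. For Slc38a5 the run lies inside the annotated gene span given below (8271133 to 8280179), past its start. It covers 0 exon bases of that gene. Capitals mark the only match to a searched motif. The motifs were CTTTGA for TCF and LEF factors, TGATGNAAT for the response element of ATF4, CACGTG for TFEB and TFE3, and AGATAA for GATA factors, each on both strands.
Slc1a4, chr11:20332738-20332813, minus strand: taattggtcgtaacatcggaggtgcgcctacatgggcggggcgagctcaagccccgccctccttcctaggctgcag
Slc38a5, chrX:8271281-8271356, plus strand: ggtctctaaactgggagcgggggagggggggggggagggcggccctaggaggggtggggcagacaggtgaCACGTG
Slc6a14, chrX:21714800-21714875, plus strand: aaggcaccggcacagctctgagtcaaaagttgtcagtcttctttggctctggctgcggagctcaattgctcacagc

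The 46 members with an entry had 67 windows, since some have more than 1 start. Over the 250 bases before the start, CACGTG was found in 9 of these 67 windows, among them those of the called Slc38a5 and Slc43a1, and in 6.02% of all 32851 promoter windows. CTTTGA was found in 11 of the 67, with Slc7a7 the only called one of the 6 called members that have an entry, and in 13.8% of all windows. AGATAA was found in 4 of the 67, again with Slc7a7 among them, and in 9.99% of all windows. TGATGNAAT was found in 1 of the 67, of Slc6a21, and in 0.816% of all windows. A match is a run of letters and no measurement of binding.

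**Figure D3:**
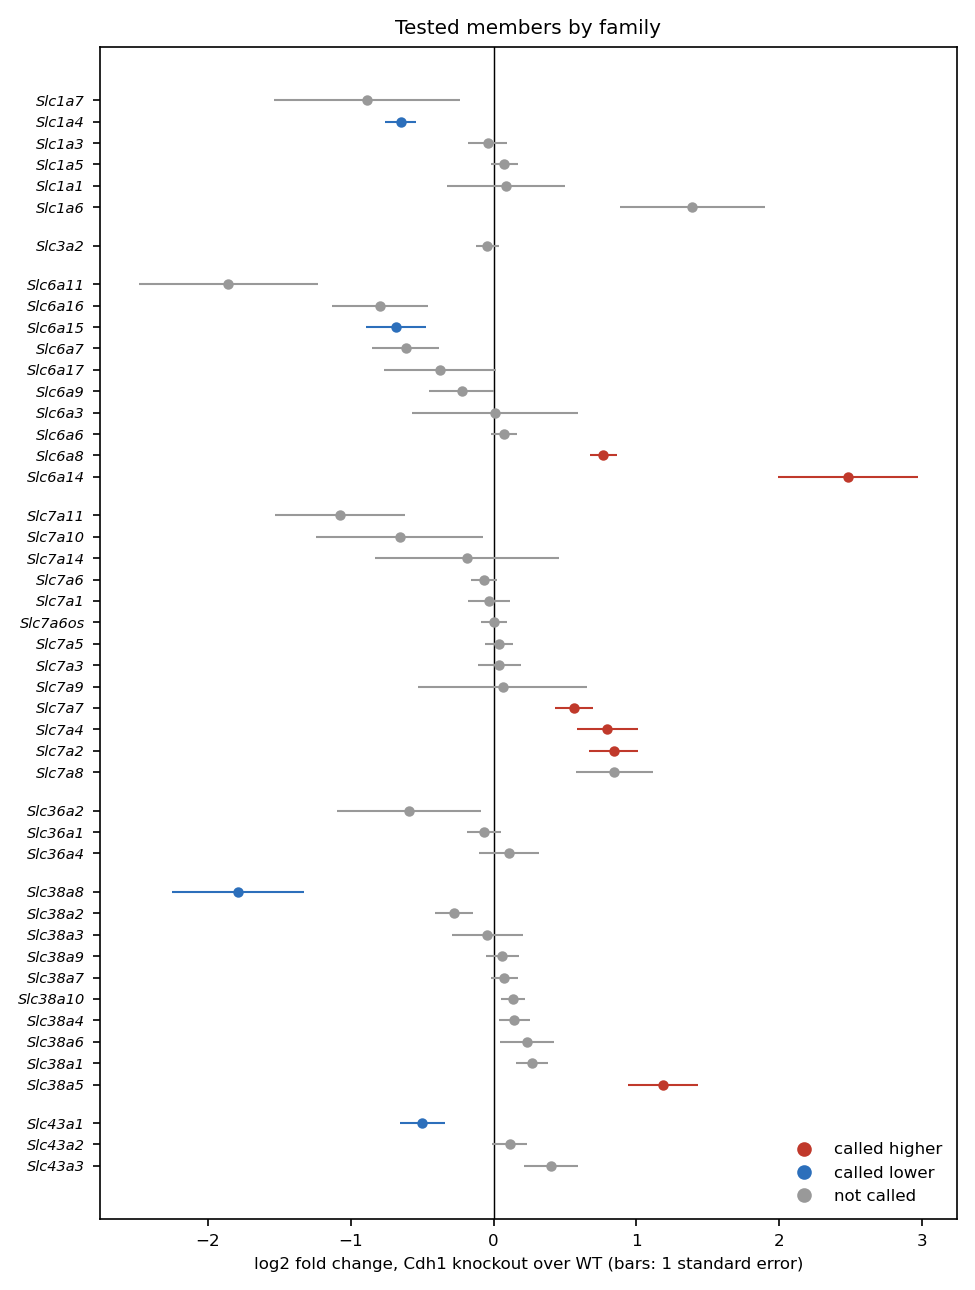
Log2 fold change of 46 of the 47 tested members (x axis, knockout over WT, bars of 1 SE), ordered within each family. Red members were called higher, blue members lower and grey members were not called. The 3 members with the lowest values in Slc1, Slc6 and Slc7 have wide bars. Some members near 0 have narrow bars, and others have wide ones, such as Slc6a3 (SE 0.58) and Slc7a9 (SE 0.59).

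The Slc6 family takes up its substrates with sodium and chloride, and it held the largest changes among the members. Of its 21 genes 11 were tested, 3 were called higher and 1 lower.

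Slc6a11 encodes a carrier of the neurotransmitter GABA. It had 0.540, 0.505 and 1.15 CPM in WT and 0.111, 0.175 and 0.303 CPM in knockout libraries, where it had at most 6 counts in a library. A level of 6 counts or less was not distinguished from 0. The WT mean, from 12, 10 and 23 counts, was 2.45-fold the mean of that floor over the knockout libraries. Slc6a11 was not called (adjusted p 0.0663). Slc6a13, also a GABA carrier, reached 0.50 CPM at most and was not tested.

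Slc6a14 (ENSMUSG00000031089.7, chromosome X, 21714896 to 21742355, GRCm38) encodes ATB0,+, a concentrating carrier of neutral and cationic amino acids. It had 0.180, 0.505 and 0.50 CPM in WT and 1.49, 2.1 and 3.03 CPM in knockout libraries. The groups did not overlap. WT counts were 4, 10 and 10, so that WT replicate A lay under the floor of 6 counts and the others close to it. The fold change thus rests in part on a level not distinguished from 0. Slc6a14 had a log2 fold change of 2.48 (SE 0.49, adjusted p 0.00338). Per exon length the knockout level was 0.642 ± 0.225 RPKM, far below that of the abundant carriers.

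Slc6a8 (ENSMUSG00000019558.14, chromosome X, 73673150 to 73682502), the creatine carrier, was the most abundant member of Slc6 that changed. It had 82.3, 72.0 and 79.0 CPM in WT and 120, 140 and 137 CPM in knockout libraries. The spread within each genotype was small beside the difference. The log2 fold change was 0.77 (SE 0.09, adjusted p 7.77e-05), a 1.70-fold increase. Slc6a6, the taurine carrier of about equal RPKM, stood at 160 ± 11.1 CPM in WT and 168 ± 11.5 CPM in knockout libraries (log2 fold change 0.07, adjusted p 0.662).

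Slc6a15 (ENSMUSG00000019894.14, chromosome 10, 103367783 to 103419377) encodes a carrier of branched-chain amino acids and proline. It had 17.3, 12.9 and 11.6 CPM in WT and 7.68, 7.03 and 11.4 CPM in knockout libraries. Knockout replicate C lay just under WT replicate C. Slc6a15 had a log2 fold change of -0.68 (SE 0.21, adjusted p 0.0442). It lost its call in 4 of the 6 fits with 1 library left out, without WT replicates A or B and knockout replicates A or B, with an adjusted p of up to 0.240. With the medians of chromosomes 1 and 14 removed its log2 fold change was still -0.68 (adjusted p 0.0542).

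The other tested Slc6 members were not called. Slc6a7, the proline carrier, had 7.89 ± 0.976 CPM in WT and 5.16 ± 1.54 CPM in knockout libraries (log2 fold change -0.62, adjusted p 0.104). The orphan Slc6a16 had 2.7 to 3.79 CPM in WT and 1.31 to 2.43 CPM in knockout libraries, without overlap (log2 fold change -0.79, adjusted p 0.143). Slc6a9, the glycine carrier GlyT1, had a log2 fold change of -0.22, but 30.2% of its exon bases lie under genes of the opposite strand, and whether reads were counted by strand is not given in the sources used here. Slc6a17, a vesicular carrier, had a log2 fold change of -0.38, and the dopamine carrier Slc6a3 had one of 0.01 at 0.651 CPM or less on average.

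The Slc7 family holds carriers of cationic amino acids, which work alone, and light chains, which need a heavy chain. Of its 16 genes 13 were tested, 3 were called higher and 0 lower. Before adjustment 5 genes of Slc7 had a p under 0.05, of which Slc7a11 was the only one lower in the knockout. Slc7a2 (ENSMUSG00000031596.15, chromosome 8, 40862396 to 40922308) encodes CAT-2, a carrier of arginine, lysine and ornithine. It had 15.9, 28.5 and 22.1 CPM in WT and 42.3, 35.9 and 40.7 CPM in knockout libraries. The groups did not overlap, and the WT libraries spread more than the knockout libraries. For Slc7a2, 6.95% of the exon bases lie under a gene of the opposite strand. The log2 fold change was 0.84 (SE 0.17, adjusted p 0.00371).

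Slc7a2 made up a small part of the cationic carriers. It held 3.73% ± 1.52 of the summed RPKM of Slc7a1, Slc7a2 and Slc7a3 in WT and 6.54% ± 1.98 in the knockout (SD, n = 3 each), with overlapping libraries. Slc7a3 held 51.1% and 50.9%, and Slc7a1 held 45.2% and 42.5%. The sum of the 3 was 71.0 ± 8.51 RPKM in WT and 73.2 ± 16.0 RPKM in the knockout, lowest at 56.7 RPKM in knockout replicate A and highest at 88.7 RPKM in knockout replicate B.

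Slc7a4 (ENSMUSG00000022756.17, chromosome 16, 17572018 to 17583214) encodes a protein that resembles the cationic carriers. It had 4.95, 4.45 and 3.60 CPM in WT and 6.74, 7.95 and 7.87 CPM in knockout libraries, without overlap. Slc7a4 had a log2 fold change of 0.79 (SE 0.21, adjusted p 0.0223), and 13.3% of its exon bases lie under a gene of the opposite strand. In 4 of the 6 fits with 1 library left out it was no longer called, without WT replicates B or C and knockout replicates B or C, with an adjusted p of up to 0.0768. Slc7a14, of the same group, had 0.101 to 1.33 CPM and a log2 fold change of -0.19.

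Among the light chains of 4F2hc, Slc7a7 alone was called. Slc7a7 (ENSMUSG00000000958.10, chromosome 14, 54369442 to 54417780) encodes y+LAT1, which exports cationic amino acids in exchange for neutral ones and sodium. It had 71.2, 56.2 and 54.8 CPM in WT and 71.5, 101 and 96.6 CPM in knockout libraries. Knockout replicate A was level with WT replicate A. For Slc7a7, 7.0% of the exon bases lie under a gene of the opposite strand. The log2 fold change was 0.56 (SE 0.13, adjusted p 0.0112), close to the median of 0.53 over the 622 tested genes of chromosome 14, of which 49.8% were called higher. With the medians of chromosomes 1 and 14 removed from each library it was 0.02 (adjusted p 0.944). Nor was it called in 4 of the 6 fits with 1 library left out, without WT replicates B or C and knockout replicates B or C.

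Slc7a8, the light chain LAT2 on the same chromosome, had 3.60, 3.08 and 2.20 CPM in WT and 5.47, 4.19 and 6.36 CPM in knockout libraries. It was not called, with a log2 fold change of 0.84 (SE 0.27, adjusted p 0.0542), and of 0.30 (adjusted p 0.543) with the chromosome medians removed. Slc7a8 was called without the low-count filter, with DESeq2 and with a replicate block. Slc7a6, or y+LAT2, had 105 ± 6.81 CPM in WT and 100.4 ± 7.53 CPM in knockout libraries (log2 fold change -0.07, adjusted p 0.706). Slc7a10, which carries small neutral amino acids, stayed under 1 CPM in each library, and 17.9% of its exon bases lie under a gene of the opposite strand.

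Slc7a11 encodes xCT, which imports cystine for the synthesis of glutathione in exchange for glutamate. It had 4.05, 2.12 and 3.30 CPM in WT and 0.442, 2.36 and 1.61 CPM in knockout libraries. The groups overlapped, with knockout replicate A the lowest and knockout replicate B above WT replicate B. Its log2 fold change was -1.08 (SE 0.46, adjusted p 0.143). Slc7a11 was called without the low-count filter.

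The 6 light chains of 4F2hc summed to 237 ± 17.5 RPKM in WT and 252 ± 27.0 RPKM in the knockout. Slc7a5 held 77.8% ± 1.68 of this sum in WT and 75.2% ± 1.38 in the knockout. Slc7a7 held 9.74% ± 1.22 and 13.5% ± 1.18, and its share was higher in each knockout library (12.2% to 14.4%) than in any WT library (8.47% to 10.9%). The ratio of the summed light chains to Slc3a2 was 1.51 to 1.68 in WT and 1.57 to 1.80 in the knockout. The heavy chain Slc3a1, the partner of the light chain Slc7a9, had 0.400 CPM at most, and Slc7a9 itself had 0.221 to 1.11 CPM (log2 fold change 0.06).

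**Figure D4:**
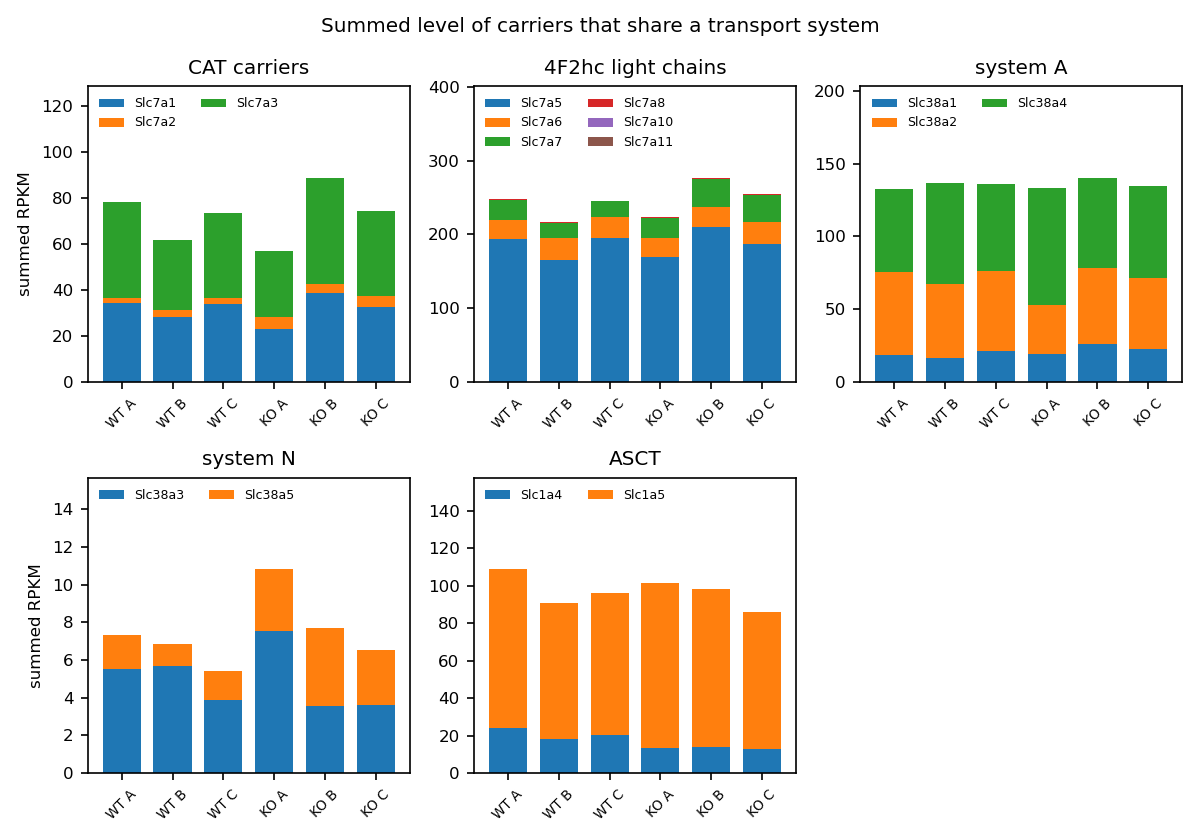
Summed RPKM (y axis, from 0) of carriers that share a transport system, 1 bar per library, with the part of each gene in colour. The bars of system A stay between 132 and 140 RPKM in all 6 libraries, and the orange part of Slc1a5 fills most of the ASCT bars.

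The Slc1 family holds carriers of glutamate and aspartate and the neutral exchangers ASCT1 and ASCT2. Of its 7 genes 6 were tested, 1 was called lower and 0 higher, and 2 had an unadjusted p under 0.05. Slc1a4 (ENSMUSG00000020142.12, chromosome 11, 20302180 to 20332713) encodes ASCT1, which exchanges alanine, serine, cysteine and threonine. It had 94.2, 70.8 and 79.6 CPM in WT and 52.1, 53.9 and 49.7 CPM in knockout libraries. The knockout libraries lay close together and below all WT libraries. The log2 fold change was -0.65 (SE 0.11, adjusted p 0.000974), so that WT was 1.57-fold higher.

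Slc1a4 held 21.0% ± 1.08 of the summed RPKM of Slc1a4 and Slc1a5 in WT and 13.9% ± 0.806 in the knockout, where each library (13.1% to 14.7%) lay under each WT library (19.9% to 22.0%). The sum of both was 98.6 ± 9.25 RPKM in WT and 95.2 ± 8.05 RPKM in the knockout, and its libraries overlapped.

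Of the glutamate carriers, 4 were tested and 0 called, with 1 at an unadjusted p under 0.05. Slc1a3, or GLAST, held most of their RPKM and stood at 20.3 ± 1.10 CPM in WT and 19.7 ± 2.91 CPM in knockout libraries (log2 fold change -0.04, adjusted p 0.890). Slc1a6 had 0.810, 0.758 and 0.200 CPM in WT and 2.1, 1.40 and 1.21 CPM in knockout libraries, without overlap. It was not called (log2 fold change 1.39, SE 0.51, adjusted p 0.0905; unadjusted p 0.0158). Slc1a1, with 31.9% of its exon bases under a gene of the opposite strand, had a log2 fold change of 0.09, and Slc1a7 had one of -0.89 (SE 0.65) with 2 to 24 counts per library.

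The Slc38 family carries glutamine and other small neutral amino acids. Of its 11 genes 10 were tested, 1 was called higher and 1 lower. Slc38a5 (ENSMUSG00000031170.14, chromosome X, 8271133 to 8280179) encodes SNAT5, a system N carrier that moves glutamine, asparagine, histidine, serine and glycine in exchange for protons. It had 4.05, 2.53 and 3.5 CPM in WT and 7.30, 9.22 and 6.46 CPM in knockout libraries. All knockout libraries lay above all WT libraries. Slc38a5 had a log2 fold change of 1.19 (SE 0.24, adjusted p 0.00449), a 2.28-fold increase.

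Slc38a3, the other system N carrier, had 19.6, 20.3 and 13.7 CPM in WT and 26.8, 12.6 and 12.9 CPM in knockout libraries. Knockout replicate A was the highest library and the other knockout libraries the lowest (log2 fold change -0.04, SE 0.25, adjusted p 0.938). The share of Slc38a5 in the summed RPKM of system N was 23.5% ± 6.32 in WT and 43% ± 11.9 in the knockout, with 30.3% in knockout replicate A beside 29.0% in WT replicate C.

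Slc38a8 (ENSMUSG00000034224.14, chromosome 8, 119479602 to 119501698) encodes a glutamine carrier. It had 2.43, 1.97 and 2.1 CPM in WT and 0.276, 1.05 and 0.505 CPM in knockout libraries, without overlap, and its knockout counts were 5, 24 and 10. The log2 fold change was -1.79 (SE 0.46, adjusted p 0.0179). In 4 of the 6 fits with 1 library left out it was no longer called, without any 1 of the WT replicates and without knockout replicate C, with an adjusted p of up to 0.0808.

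The 3 system A carriers Slc38a1, Slc38a2 and Slc38a4 lie in a row on chromosome 15 with 0 protein-coding genes between them. Their sum was 135 ± 2.51 RPKM in WT and 136 ± 3.85 RPKM in the knockout. In knockout replicate A, Slc38a2 held 25.2% and Slc38a4 60.4% of it, whereas in the other 5 libraries Slc38a2 held 36.3% to 42.8% and Slc38a4 43.2% to 50.8%. Slc38a1 had 199 ± 23.6 CPM in WT and 240 ± 34.0 CPM in knockout libraries (log2 fold change 0.27, SE 0.11, adjusted p 0.133). It was called without knockout replicate A and without the low-count filter.

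The other Slc38 members were not called. Slc38a9, the arginine sensor of the lysosome that acts on mTORC1, had 22.2 to 24.1 CPM in WT and 23.5 to 25 CPM in knockout libraries (log2 fold change 0.06, SE 0.11). Slc38a7, which exports glutamine and asparagine from the lysosome, had a log2 fold change of 0.07. Slc38a10 had 97.6 to 104 CPM in WT and 109 to 113 CPM in knockout libraries, without overlap (log2 fold change 0.14, adjusted p 0.319). Slc38a6 had a log2 fold change of 0.23 (SE 0.19).

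The Slc43 family holds facilitators that move large neutral amino acids down their gradient. All 3 genes were tested, 1 was called lower and 0 higher, and 1 passed an unadjusted p of 0.05. Slc43a1 (ENSMUSG00000027075.16, chromosome 2, 84838850 to 84863594) encodes LAT3. It had 18.3, 19.6 and 18.3 CPM in WT and 15.4, 13.9 and 10.4 CPM in knockout libraries. The groups did not overlap, and the knockout libraries spread more. Slc43a1 had a log2 fold change of -0.50 (SE 0.16, adjusted p 0.0493), barely past the threshold. It lost its call in each fit with 1 library left out except the one without knockout replicate A, with an adjusted p of up to 0.195. With the chromosome medians removed its log2 fold change was still -0.50 (adjusted p 0.0601). Slc43a2, or LAT4, had a log2 fold change of 0.11 and the purine base carrier Slc43a3 one of 0.40 (SE 0.19, adjusted p 0.192).

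In the Slc36 family, carriers such as Slc36a1 couple the transport of small neutral amino acids to protons, at the cell surface and in lysosomes. Of the 4 genes of this family 3 were tested and 0 were called, and 0 passed an unadjusted p of 0.05. Slc36a1 had 20.7 to 24.4 CPM in WT and 20.8 to 21.8 CPM in knockout libraries (log2 fold change -0.07, SE 0.12). Slc36a4 had a log2 fold change of 0.11 (SE 0.21) and Slc36a2, at 0.707 CPM or less, one of -0.59 (SE 0.50).

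The 17 members without enough counts for a test were Slc1a2, Slc3a1, Slc36a3, Slc38a11, Slc6a2, Slc6a4, Slc6a5, Slc6a12, Slc6a13, Slc6a18, Slc6a19, Slc6a20a, Slc6a20b, Slc6a21, Slc7a12, Slc7a13 and Slc7a15. None exceeded 0.663 CPM in any library, the value of the glycine carrier Slc6a5 in knockout replicate A. Slc36a3, Slc6a18 and Slc7a12 had 0 counts in each library, which allows a level of up to 0.262 to 0.332 CPM, the 6-count floor of the 6 libraries. Slc6a20a and Slc6a20b are related copies, and how reads that match both were counted was not tested.

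**Figure D5:**
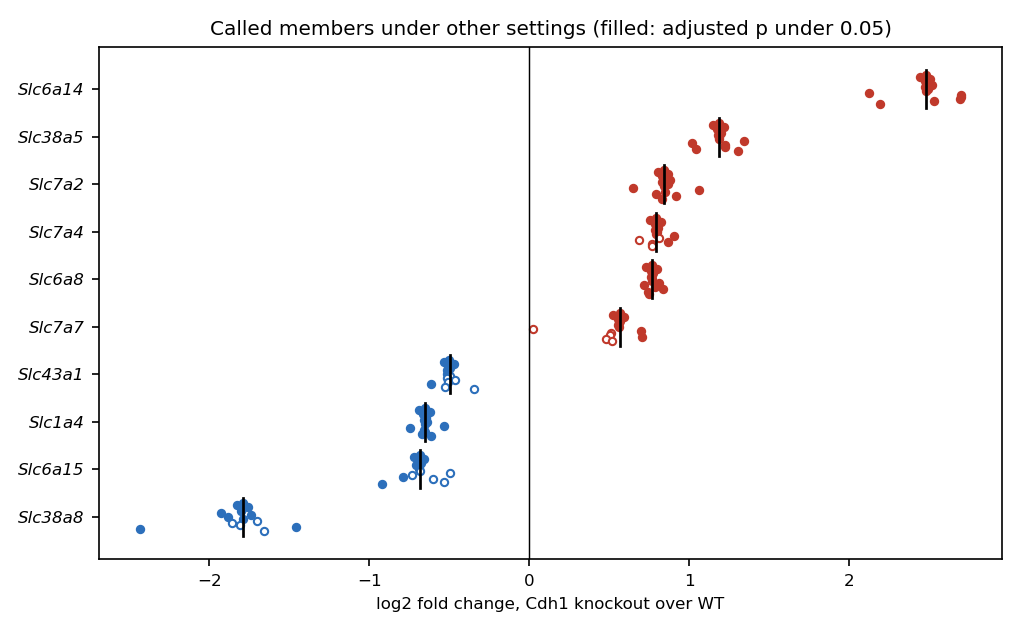
Log2 fold change (x axis) of 10 of the 11 called members in the fit of the report (black bar) and in 15 other settings (points), filled where the adjusted p was under 0.05. Slc6a14, Slc38a5, Slc7a2, Slc6a8 and Slc1a4 have filled points only, and the open point of Slc7a7 near 0 is the fit with the medians of chromosomes 1 and 14 removed.

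Genes that work with these carriers were read from lists of the same pathway. Over all 17325 tested genes, 13.3% were called and 4622 genes had an unadjusted p under 0.05. Of 23 other amino acid carriers, in mitochondria, vesicles and lysosomes and for peptides, 19 were tested, 1 was called higher and 0 lower, with 2 at an unadjusted p under 0.05 and a median log2 fold change of 0.05. The called gene was the peptide carrier Slc15a1, which stood at 15.5 ± 3.13 CPM in WT and 36.8 ± 1.38 CPM in knockout libraries (log2 fold change 1.25, adjusted p 4.35e-05). It lies on chromosome 14 and was at 0.71 with the chromosome medians removed (adjusted p 0.00420).

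Of 8 genes for partners and trafficking of carriers, 6 were tested and 1 was called, with 4 at an unadjusted p under 0.05, 5 without overlap between the genotypes (83.3%, beside 30.7% of all tested genes) and a median log2 fold change of 0.20. The called gene was Sgk3, a kinase that keeps carriers at the surface. It had 21.0 ± 2.49 CPM in WT and 11.2 ± 1.57 CPM in knockout libraries (log2 fold change -0.91, adjusted p 0.00110). It lies on chromosome 1 and was at -0.59 with the chromosome medians removed (adjusted p 0.0209). Cltrn, a partner of intestinal and renal carriers, had 0.202 CPM at most.

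The transcription factor ATF4 raises many carriers, among them Slc7a11, Slc7a5, Slc3a2, Slc1a4 and Slc38a2, when amino acids are scarce. Of 16 genes of its axis all were tested, 0 were called higher and 1 lower, with 3 at an unadjusted p under 0.05 and a median of -0.17. Atf4 itself stood at 404 ± 54.3 CPM in WT and 358 ± 54.6 CPM in knockout libraries (log2 fold change -0.17, adjusted p 0.393). Its target Asns, asparagine synthetase, stood at 537 ± 83.6 CPM and 619 ± 70.6 CPM (log2 fold change 0.20, adjusted p 0.267). The called gene was Cebpg (log2 fold change -0.29, adjusted p 0.0451). Of the 5 carriers named above Slc1a4 alone was called.

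For sensing of amino acids at the lysosome, 32 of 34 listed genes were matched and tested, 3 were called higher and 3 lower, with 7 at an unadjusted p under 0.05 and a median of -0.05. Rragd, a GTPase that recruits mTORC1 to the lysosome, fell from 51.5 ± 2.17 CPM in WT to 21.1 ± 2.05 CPM without Cdh1 (log2 fold change -1.29, adjusted p 5.4e-06). The other called GTPase gene, Rragb, had a log2 fold change of -0.51, and Itfg2 had one of -0.44. Sesn1, a sensor that restrains mTORC1, rose from 25.5 ± 3.77 CPM in WT to 43.1 ± 3.08 CPM without Cdh1 (log2 fold change 0.76, adjusted p 0.000937). Tfe3 and Tfeb, which switch on lysosomal genes and bind CACGTG, had log2 fold changes of 0.53 and 0.43 (adjusted p 0.00107 and 0.0307).

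Among enzymes that make or use the carried amino acids, 47 of 48 were tested, 6 were called higher and 5 lower, with 19 at an unadjusted p under 0.05 and a median of 0.08. Ass1, which makes the precursor of arginine, rose from 169 ± 12.7 CPM in WT to 332 ± 38.5 CPM without Cdh1 (log2 fold change 0.97, adjusted p 1.86e-05). Gad1, which makes GABA, was barely past the threshold, with a log2 fold change of 0.93 between 2.66 ± 1.02 CPM in WT and 5.09 ± 0.312 CPM in the mutant cells (adjusted p 0.0497). Ckmt1, a mitochondrial creatine kinase, was higher by 0.88 on the log2 scale (adjusted p 0.00402). Glud1, glutamate dehydrogenase on chromosome 14, had one of 0.79 (adjusted p 2.15e-05), and of 0.25 with the chromosome medians removed, where its call was lost (adjusted p 0.0692). Gcat, which breaks down threonine, had one of -0.73. Called enzyme genes that were named after their values were seen were Asl and Bckdha with 0.48 and 0.37, and Pycr1, Psat1 and Gldc with -0.49, -0.47 and -0.29.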

How the data were processed

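Gene counts of 6 libraries, made by the authors from strand-specific libraries of TRIzol-extracted RNA per the labels' protocols, were used as deposited. The submitters' processing notes name cutadapt 2.10, STAR 2.7.5b, featureCounts 2.0.1 and GRCm38. The strand setting and annotation are not given in the sources used here. Symbols came from GENCODE on GRCm38, matched without the version of the identifier, and 55141 of 55401 identifiers had a symbol. With the version, 54349 were equal to those of the annotation. The 3 antisense genes with a matching prefix were not members. Members and lists were chosen with earlier results of these data known.

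Genes were filtered with filterByExpr (minimum count 10, total 15), scaled by TMM and tested with edgeR 4.0.16 in R 4.3.3 (glmQLFit, glmQLFTest), with genotype as the only term and Benjamini-Hochberg adjustment over 17325 genes. Standard errors came from the F statistic. RPKM used the deposited exon length. Even numbers made up 78.1% to 83.1% of counts from 1 to 10, so the floor was set at 6 counts per library. The floor covers counting error only. The script was tested on simulated data. Values in each library are given for called members and for the 8 members with the highest RPKM. Of each list up to 6 called genes with the largest changes were named. The alternatives were other scalings and filters, DESeq2 1.42.0, limma-voom (limma 3.58.1), halved counts, a replicate block, chromosome medians removed, a test against a fold of 1.2, a threshold of 0.01 and leaving out each library. The values of some genes are not reported here, although counts include them.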

Additional observations from a re-analysis of the deposited data

How the results depend on the processing

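The 11 called members were 11 with RLE scaling, library totals, a mean of at least 1 CPM, limma-voom and counts divided by 2, 12 with DESeq2 (2428 of all genes), 14 without the low-count filter (8.63% of all genes) and 8 with the medians of chromosomes 1 and 14 removed (9.85%, where the calls over all genes also fell, to 1706). They were 7 against a fold of 1.2 (6.79%) and 6 at an adjusted p under 0.01 (7.17%). Leaving out 1 library gave 6 (without WT replicate B) to 13 (without knockout replicate A), and the latter fit shared 10 with the 11. Slc38a1, Slc6a16 and Slc6a7 were added there. Over all genes the 2307 calls became 1176 against a fold of 1.2, 1242 at 0.01, and 1374 (without WT replicate A) to 2784 (without knockout replicate A).

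With a replicate block 13 members were called, Slc6a7 and Slc7a8 added. Deviations of libraries with the same letter correlated at 0.165 (A), -0.149 (B) and 0.396 (C), so the letters were not taken to pair the samples, and WT replicate B correlated best with knockout replicate A (0.261).

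The 1 called partner gene became 2 without the filter, with DESeq2 and with the replicate block, and 1 to 2 with a library left out. Other carriers had 1 to 2. The ATF4 axis had 0 without the filter, with chromosome medians removed, against the fold and at 0.01, and 0 to 1 with a library left out. Lysosomal sensing had 3 against the fold and at 0.01, and enzymes 4 and 6. With a library left out these 2 lists had as few as 3 and 5.

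Signs changed for uncalled members near 0 when single libraries were left out. The log2 fold change ranged from -0.077 (without WT replicate B) to 0.0088 (without WT replicate C) for Slc3a2, and from -0.19 (without knockout replicate B) to 0.15 (without knockout replicate A) for Slc7a1. It ranged from -0.13 (without knockout replicate B) to 0.20 (without knockout replicate A) for Slc7a3, from -0.039 (without WT replicate B) to 0.11 (without knockout replicate A) for Slc7a5, and from -0.021 (without WT replicate B) to 0.037 (without WT replicate C) for Slc7a6os. Slc7a5 was at -0.00096 with library totals, and Slc7a6os at -0.033 with library totals, -0.0077 with a mean of at least 1 CPM and -0.0049 with counts divided by 2. The cause was not tested. Members under 6 counts cannot be told from 0 at this depth.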
